A study of Mus musculus with 6 samples.

Results

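The 10 immediate early genes Egr1, Egr2, Egr3, Fos, Fosb, Jun, Junb, Jund, Ier2 and Atf3 were followed through RNA-seq libraries of mouse splenic type 2 conventional dendritic cells (cDC2s), antigen-presenting cells of the spleen. They were taken by gene symbol from the 14535 rows of the deposited count table, and all 10 were present. The IRF4-deficient group (3 libraries) came from CD11c-Cre Irf4fl/fl animals, whose Cre is driven by the CD11c promoter and acts on loxP-flanked Irf4 in CD11c-expressing cells. The WT group also had 3 libraries, and both groups were of strain C57BL/6, with no age, treatment or sort gate in the labels. No group carried Cre alone, so Cre, the floxed allele and loss of Irf4 cannot be told apart. The study's comparison asks how the cDC2 transcriptome differs without IRF4. The labels do not say that replicates came from separate mice, so the spread between libraries may be technical. WT replicate 3 by title is the library numbered 4 in the count table and in its source name.

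Immediate early genes are transcribed within minutes of a signal without new protein synthesis, through MAP kinases that act on the serum response factor SRF with its ternary complex factors and on CREB. FOS and JUN proteins pair through leucine zippers to form the transcription factor AP-1, EGR proteins bind GC-rich DNA through zinc fingers, ATF3 is a stress-induced leucine zipper factor of the ATF family, and IER2 is a small nuclear protein. In dendritic cells these genes respond to pattern recognition and growth factor signals, and in many tissues they also respond to enzymatic digestion and handling of cells. The labels used here record no digestion or sorting times.

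To show what the promoters of coordinately varying members share, windows from RefSeq (GRCm38.p6) were searched on both strands. Each window is 300 bases long and runs from 250 bases before to 50 bases after a gene's start. A window was found for 7 of the 10 members, the exceptions being Egr1, Egr3 and Ier2. Sequence outside these windows was not searched, so a missing match does not mean that a gene lacks the element. The search was for the full cyclic AMP response element TGACGTCA, its shorter form TGACG, the AP-1 element TGANTCA, the AP-1 variant TGACATCA, the EGR element GCGTGGGCG, and the CArG box bound by SRF. The shorter form lies within the full element. The windows of Fos, Fosb, Egr2 and Jun are printed because these 4 members stood far apart between the WT libraries. Capitals mark the matched elements.
Fos, chr12:85473640-85473939, plus strand: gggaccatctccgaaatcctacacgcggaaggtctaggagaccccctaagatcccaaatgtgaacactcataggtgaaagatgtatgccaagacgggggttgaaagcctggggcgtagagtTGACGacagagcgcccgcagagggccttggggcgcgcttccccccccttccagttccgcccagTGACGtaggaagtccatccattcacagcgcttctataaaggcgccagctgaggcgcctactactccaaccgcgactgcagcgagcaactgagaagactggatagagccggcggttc
Fosb, chr7:19309996-19310295, minus strand: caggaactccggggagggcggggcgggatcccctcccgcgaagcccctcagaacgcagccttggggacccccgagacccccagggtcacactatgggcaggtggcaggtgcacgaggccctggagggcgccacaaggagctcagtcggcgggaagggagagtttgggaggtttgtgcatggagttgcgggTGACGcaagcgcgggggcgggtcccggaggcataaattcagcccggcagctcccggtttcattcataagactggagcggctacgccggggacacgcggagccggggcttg
Egr2, chr10:67537619-67537918, plus strand: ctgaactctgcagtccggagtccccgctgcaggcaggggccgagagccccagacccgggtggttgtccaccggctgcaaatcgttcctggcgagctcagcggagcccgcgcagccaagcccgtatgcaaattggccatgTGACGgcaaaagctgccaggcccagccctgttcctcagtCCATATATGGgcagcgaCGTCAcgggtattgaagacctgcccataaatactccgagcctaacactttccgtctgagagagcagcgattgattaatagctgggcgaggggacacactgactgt
Jun, chr4:95052173-95052472, minus strand: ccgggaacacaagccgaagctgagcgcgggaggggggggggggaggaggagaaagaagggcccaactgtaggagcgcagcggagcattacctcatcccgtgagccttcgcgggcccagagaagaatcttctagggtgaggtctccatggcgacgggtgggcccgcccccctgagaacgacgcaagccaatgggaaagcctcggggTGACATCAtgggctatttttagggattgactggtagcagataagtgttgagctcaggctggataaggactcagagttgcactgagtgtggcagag
Counted from 1 at the 5′ end of the window, TGACG began at positions 122 and 185 in Fos and at 191 in Fosb. In Egr2 it began at 140 and, on the other strand, at 196, with a CArG box at 179. The Jun window held TGACATCA at 206. Of the 7 members with a window, TGACG was found in 5 (Fos, Fosb, Junb, Egr2 and Atf3), against 20.8% of the 32851 windows in the table. A member counted if any of its windows matched, so this count and the share of single windows are not like for like. The CArG box was found in 1 of the 7 members, Egr2, against 1.63% of all windows. It lay in 4 of the 5 windows listed for Egr2, but some of these overlap and hold the same box. TGACATCA was found in 1 member, Jun, against 3.62% of all windows. TGACGTCA (1.79% of all windows), TGANTCA (7.81%) and GCGTGGGCG (0.612%) were found in 0 member windows.

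Library totals ran from 7949462 to 10609420 counts in IRF4-deficient libraries and from 7421605 to 11459920 counts in WT libraries, WT replicate 3 having the smallest. Levels are read counts scaled to library size with TMM factors (CPM), and a group's values are given in the order of replicates 1 to 3. Irf4, the targeted gene, stood at 90.8, 65.3 and 84.0 CPM in IRF4-deficient libraries, against 291.8, 295.8 and 345.0 CPM in WT libraries, so every library matched its label. Of 12 genes that mark conventional dendritic cells and cDC2s, all were present in each library, 2 were called higher and 7, Irf4 among them, lower in IRF4-deficient cells by edgeR. Itgax (CD11c) stood at 1672 to 1757 CPM in IRF4-deficient libraries and 1352 to 1427 CPM in WT libraries, and Itgam (CD11b) at 1721 to 1969 CPM in IRF4-deficient libraries and 570.2 to 648.7 CPM in WT libraries. Cd209a stood at 109.1 to 151.3 CPM in IRF4-deficient libraries and 276.3 to 345.1 CPM in WT libraries, Zbtb46 at 37.97 to 46.2 CPM against 73.3 to 86.4 CPM in WT, and Flt3 at 235.3 to 258.9 CPM against 396.6 to 428.1 CPM in WT. The identity markers thus differed between the genotypes, and their part in the members' levels was not tested.

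The 10 genes were far more uneven between WT libraries than between IRF4-deficient ones, and WT replicate 3 stood below WT replicates 1 and 2 for each of them. These differences between libraries, and the members' difference between genotypes, are the measured values that the genes were selected on, so they are given as descriptions. The fit over all genes includes the members, and no call or count of members in it is taken as evidence about them. Together the 10 genes summed to 930.3, 1068 and 808.8 CPM in IRF4-deficient libraries and to 1842, 1496 and 331.6 CPM in WT libraries. Within the IRF4-deficient group the highest library exceeded the lowest by a median of 1.55-fold over the members. Within WT that median was 5.48-fold. The same medians over all 11934 tested genes were 1.31-fold and 1.26-fold (with 0.1 CPM added for these), so WT libraries were no more uneven than IRF4-deficient ones across the transcriptome as a whole.

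**Figure D1:**
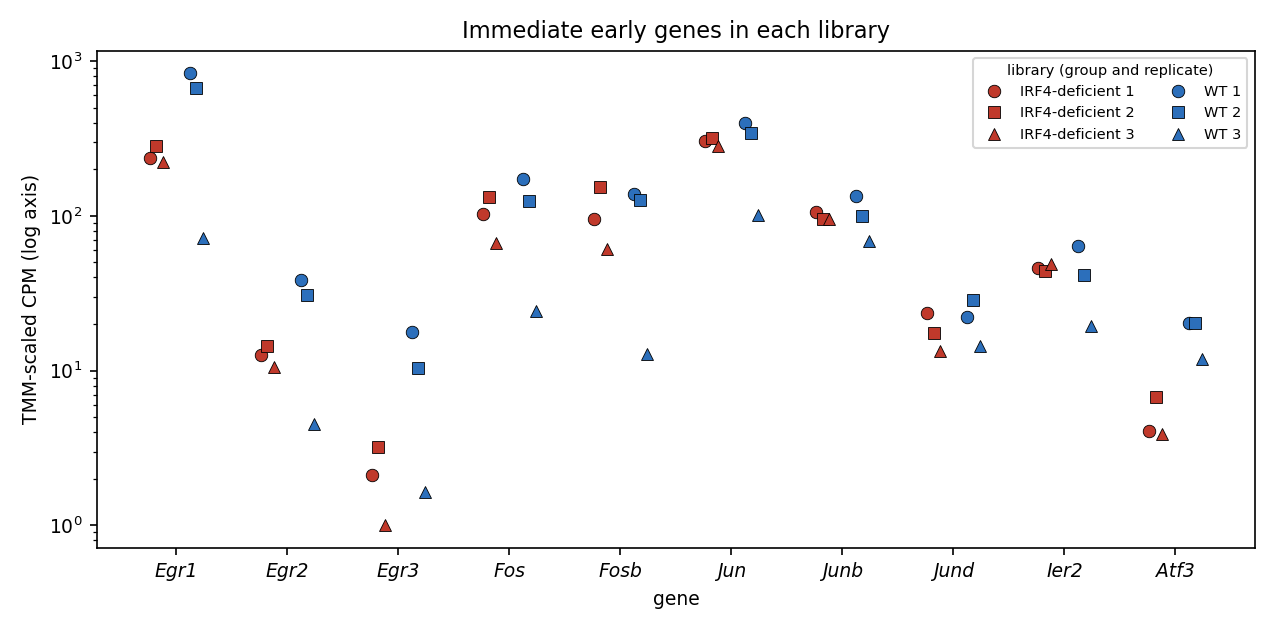
TMM-scaled CPM on a log axis for each of the 10 genes (x axis), with 1 point per library, IRF4-deficient on the left of each gene and WT on the right, and a symbol per replicate. WT replicate 3 (blue triangles) lies below the other WT libraries for all 10 genes, from 10.4-fold below for Egr1 to 1.68-fold for Junb.

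Of the EGR zinc finger factors, Egr1 (GRCm38 chromosome 18, 34859823 to 34864984, plus strand) is the prototype growth factor-induced member. It stood at 235.1, 282.6 and 224.1 CPM in IRF4-deficient libraries, against 833.8, 672.3 and 71.98 CPM in WT libraries. The IRF4-deficient libraries lay close together, below WT replicates 1 and 2 and at least 3.11-fold above WT replicate 3, so that the groups overlapped through that library. Egr2 (chromosome 10, 67535475 to 67542188, plus strand), known in T cells as a brake on activation, stood at 12.7, 14.3 and 10.6 CPM in IRF4-deficient libraries and 38.6, 30.8 and 4.51 CPM in WT libraries. From highest to lowest, the 6 libraries took the same order for Egr1 and Egr2. Egr3 (chromosome 14, 70077203 to 70082614, plus strand), a close relative of Egr2, was scarce, with 23, 26 and 9 counts in IRF4-deficient libraries and 128, 114 and 12 counts in WT libraries. In CPM these were 2.12, 3.21 and 1.002 in IRF4-deficient libraries, against 17.7, 10.4 and 1.64 in WT libraries, so WT replicate 3 lay inside the IRF4-deficient range.

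Of the FOS genes, whose products bind DNA in AP-1 with JUN partners, Fos (chromosome 12, 85473890 to 85477273, plus strand) stood at 102.2, 132.4 and 67.0 CPM in IRF4-deficient libraries and at 171.9, 125.1 and 24.4 CPM in WT libraries. Fosb (chromosome 7, 19302696 to 19310051, minus strand) stood at 95.2, 154.2 and 61.4 CPM in IRF4-deficient libraries and at 138.0, 125.7 and 12.8 CPM in WT libraries. Unlike the EGR genes, both had an IRF4-deficient value above at least 1 of WT replicates 1 and 2. IRF4-deficient replicate 2 lay between them for Fos and was the highest of all 6 libraries for Fosb. WT replicate 3 was again the lowest of all 6 libraries, and IRF4-deficient replicate 3 was the next lowest.

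Jun (chromosome 4, 95049034 to 95052222, minus strand), the founding JUN gene, stood at 303.2, 317.9 and 282.7 CPM in IRF4-deficient libraries and at 399.8, 342.2 and 101.6 CPM in WT libraries. Junb (chromosome 8, 84974484 to 84978718, minus strand), a JUN relative that pairs with BATF in T helper cells, stood at 105.8, 95.04 and 96.1 CPM in IRF4-deficient libraries and at 135.4, 99.1 and 69.0 CPM in WT libraries. Jund (chromosome 8, 70698949 to 70700616, plus strand), the JUN gene least dependent on stimulation, stood at 23.7, 17.6 and 13.4 CPM in IRF4-deficient libraries and at 22.3, 28.7 and 14.3 CPM in WT libraries. WT replicate 3 was thus the lowest of all libraries for Jun and Junb, while for Jund IRF4-deficient replicate 3 was lower still. Genes of the other strand overlap Jun (Junos), Junb (Prdx2) and Jund (Gm11175), and a small RNA gene overlaps Atf3, so reads of these pairs cannot be told apart without a stated strand setting. Prdx2 itself stood at 22, 21.1 and 15.5 CPM in IRF4-deficient libraries and at 19.5, 18.4 and 16.0 CPM in WT libraries.

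Ier2 (chromosome 8, 84661331 to 84662852, minus strand) stood at 46.2, 44.2 and 48.7 CPM in IRF4-deficient libraries and at 64.3, 41.3 and 19.4 CPM in WT libraries, so the IRF4-deficient values lay within the WT range. Atf3 (chromosome 1, 191170296 to 191218039, minus strand), which represses inflammatory genes in myeloid cells, stood apart from the rest. It had 4.05, 6.80 and 3.90 CPM in IRF4-deficient libraries and 20.3, 20.3 and 11.9 CPM in WT libraries. Its groups did not overlap, with the IRF4-deficient libraries below every WT library, which held for 1 of the 10 members and for 18.1% of all tested genes. IRF4-deficient libraries were above every WT library for 0 members and 17.5% of tested genes. WT replicate 3 was the lowest of all 6 libraries for 7 members, against 18.4% of tested genes, and the same 7 had all 3 IRF4-deficient libraries above WT replicate 3, against 32.9%. All 3 IRF4-deficient libraries were below both WT replicates 1 and 2 for 5 members (Egr1, Egr2, Egr3, Jun and Atf3), against 22% of tested genes.

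Per kilobase of annotated exon, Jun was the most abundant member in IRF4-deficient cells at 94.5 ± 5.54 CPM per kb (SD, n = 3 here and below), followed by Egr1 at 55.2 ± 6.93. Junb (43.0 ± 2.59), Fos (42.8 ± 13.9) and Ier2 (30.5 ± 1.45) came next, then Fosb (16.6 ± 7.53) and Jund (10.9 ± 3.10). Neighbours whose intervals of mean ± SD overlapped were Junb with Fos, Fos with Ier2, and Fosb with Jund. Egr2 (3.69 ± 0.555), Atf3 (2.28 ± 0.758) and Egr3 (0.479 ± 0.251 CPM per kb) were the scarcest. In WT cells Egr1 came first at 117.3 ± 89.5 CPM per kb and Jun followed at 88.2 ± 49.6, with Atf3 (8.12 ± 2.26), Egr2 (7.25 ± 5.26) and Egr3 (2.25 ± 1.83) last. These intervals overlapped for every pair of neighbours in the WT order. Atf3 stood after Egr2 in the IRF4-deficient order and ahead of it in the WT order.

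Each library was then set against the mean log2 CPM of the other 2 libraries of its own group. In WT replicate 3, 7 of the 10 members were at least 2-fold below, against 2.19% of tested genes, and 0 were at least 2-fold above (2.13% of tested genes). The median log2 difference of the members was -2.22, beside 0.0078 over all tested genes. Egr1 was 10.4-fold below, Fosb 10.2-fold, Egr3 8.02-fold, Egr2 7.57-fold, Fos 5.99-fold, Jun 3.64-fold and Ier2 2.65-fold. Jund, Atf3 and Junb were 1.76-fold, 1.71-fold and 1.68-fold below. The EGR and FOS genes were thus farther down than the JUN genes, and every member was below.

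The other libraries were compared in the same way. In IRF4-deficient replicate 1, 0 members were 2-fold below (2.66% of tested genes) or 2-fold above (2.26%). In IRF4-deficient replicate 2, Egr3 and Fosb were 2-fold above (2.51%) and 0 members were 2-fold below (2.79%). In IRF4-deficient replicate 3, Egr3 was 2-fold below (3.14%), 0 members were 2-fold above (3.13%), and 8 of the 10 members had their lowest IRF4-deficient value. Summed red pulp macrophage markers were highest in that library of all 6, at 1783, 2508 and 3294 CPM in IRF4-deficient libraries and at most 1349 CPM in WT libraries, and their part was not tested. WT replicates 1 and 2 had 7 and 3 members at least 2-fold above (1.96% and 1.74%) and 0 at least 2-fold below (2.2% and 2.04%), but their comparison includes WT replicate 3.

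**Figure D2:**
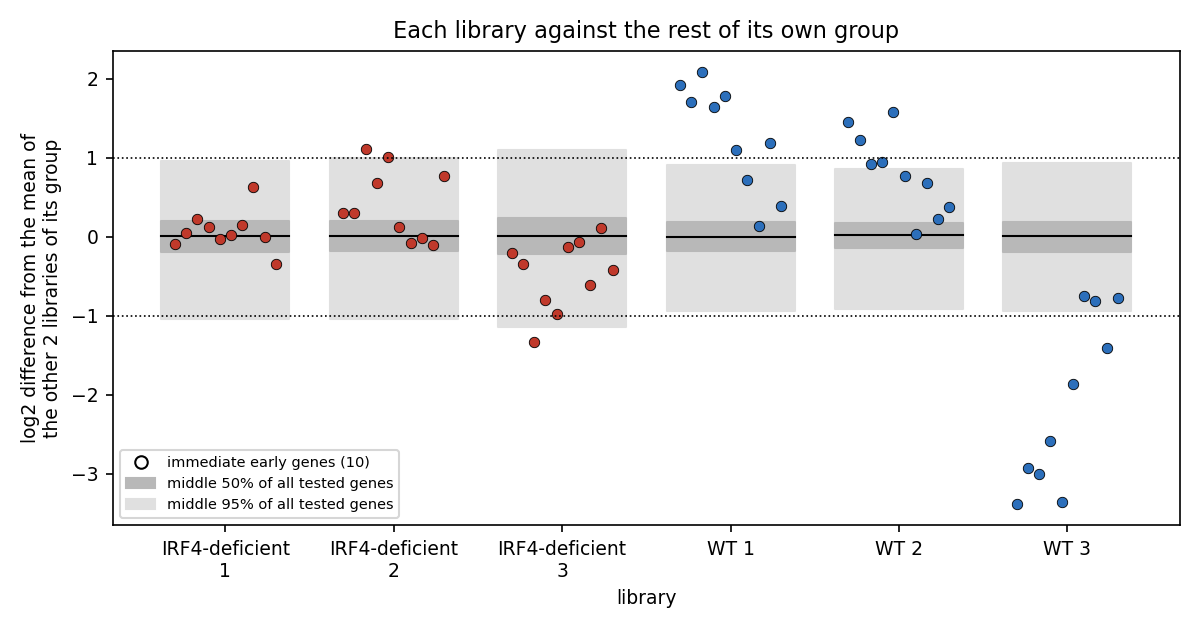
Log2 difference of each library (x axis) from the mean of the other 2 libraries of its group, with a point for each of the 10 genes in the order Egr1, Egr2, Egr3, Fos, Fosb, Jun, Junb, Jund, Ier2, Atf3 from left to right. Grey bands hold the middle 50% and 95% of all tested genes, the line is their median, dotted lines mark 2-fold, and in WT replicate 3 the members have a median of -2.22.

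Among the 6649 genes with a mean of at least 20 CPM in WT cells, 24 (0.361%) were at least 2-fold below in WT replicate 3. Of these, 6 were members (Egr1, Egr2, Fos, Fosb, Jun and Ier2) and 7 came from a list of other immediate early genes. Egr1 and Fosb held ranks 1 and 2 from the bottom. The same limit was passed by 1 gene in WT replicate 1 and 3 in WT replicate 2, and by 14, 3 and 4 of 6691 genes in IRF4-deficient libraries, with 0 members among them. After leaving out the members and predicted genes, the 10 genes farthest below in WT replicate 3 were Ccl3, Ptgs2, Odc1, Ace, Pim1, Rgs1, Zfp36, Ier3, Ppp1r15a and Beta-s. Ccl3, a macrophage inflammatory chemokine gene, stood at 4.23 CPM in WT replicate 3, against 37.9 and 45.5 CPM in the other WT libraries, and at 10.5 to 16.7 CPM in IRF4-deficient libraries. Ptgs2, the inducible cyclooxygenase gene, stood at 6.69 CPM in WT replicate 3, against 65.6 and 63.2 CPM in the other WT libraries, and at 28.8 to 61.5 CPM in IRF4-deficient libraries. At the other end of that ranking the farthest genes above in WT replicate 3 reached 1.73-fold, as with Rab39. The downward side thus held the larger departures among these genes of at least 20 CPM. Over all tested genes the sides were alike, with 2.19% at least 2-fold below and 2.13% at least 2-fold above.

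Marker sums of some other cell types were also lowest in WT replicate 3 among the WT libraries, while those of others were not. Monocyte markers (8 of 8 in the table) summed to 698.7 CPM there, against 898.4 and 832.8 CPM in the other WT libraries, and ranged from 1648 to 1980 CPM in IRF4-deficient libraries. Red pulp macrophage markers (12 of 12) summed to 1010 CPM there, against 1169 and 1349 CPM in the other WT libraries. Neutrophil markers (3 of 7 in the table) summed to 11.9 CPM there, against 25.9 and 28.5 CPM, and ranged from 31.8 to 45.9 CPM in IRF4-deficient libraries. Most of that sum was Csf3r, at 10.4 CPM there and 23.6 and 21.4 CPM in the other WT libraries. In IRF4-deficient libraries Csf3r stood at 30.9 to 45.2 CPM. The scarce S100a8 and S100a9 went the other way between the genotypes. They were at most 0.247 and 0.828 CPM in IRF4-deficient libraries and at least 0.410 and 0.968 CPM in WT libraries. The markers of cDC2s summed to 32873 CPM there, against 36784 and 35067 CPM, and those of type 1 dendritic cells to 1829 CPM, against 1750 and 1887 CPM. Of the 12 cDC2 markers, 6 had their lowest and 5 their highest WT value in WT replicate 3. The sum of plasmacytoid dendritic cell markers was highest there, at 439.1 CPM against 394.1 and 399.1 CPM. The sums of T cell markers (135.5 CPM, against 113.3 and 129.55 CPM) and of the scarce NK cell markers (6.28 CPM, against 3.60 and 5.55 CPM) were highest there too. Most of the T cell sum was Tcf7, at 101.5 CPM there and 71.1 and 97.9 CPM in the other WT libraries. Of the 8 T cell markers, 2 had their lowest and 5 their highest WT value in WT replicate 3. For the 7 NK cell markers these counts were 3 and 3. The B cell sum of 122.9 CPM lay between 78.9 and 144.7 CPM in the other WT libraries. Erythroid markers (4 of 7 in the table) summed to 29.1 CPM there, against 67.5 and 48.6 CPM, and stromal and endothelial markers (5 of 7) to 114.7 CPM, against 141.1 and 132.4 CPM. Most of the last sum was Pecam1, at 97.7 CPM there and 121 CPM in each of the other WT libraries. Of the 5 stromal and endothelial markers, 1 had its lowest and 2 their highest WT value in WT replicate 3. For the 4 erythroid markers these counts were 2 and 1. Of the 8 monocyte markers, 5 (Ccr2, Csf1r, Cx3cr1, Lyz2 and Fcgr1) had their lowest WT value in WT replicate 3, Ly6c2 and Vcan did not, and F13a1 was at 0 counts in every WT library. Of the 12 red pulp macrophage markers, 9 had their lowest WT value in WT replicate 3. Of the markers in the table, 0 were at 0 counts in all 6 libraries. In bulk samples fewer cells of a type and less RNA per cell cannot be told apart, and the part of these markers in the members' levels was not tested. The share of the ribosomal precursor row Rn45s was 7.09% of counts in WT replicate 3, against 9.48% and 7.78% in WT replicates 1 and 2, and 5.26 to 7.61% in IRF4-deficient libraries.

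In edgeR's quasi-likelihood fit over all 11934 genes, IRF4-deficient against WT, 10.5% of genes were called lower and 9.87% higher at an adjusted p under 0.05, and among the members 1 (Atf3) and 0. That contrast was in view when the genes were chosen, so the members' fitted values are a description. The fitted log2 fold change of Atf3 was -1.85 (SE 0.29), and -2.06 (SE 0.30) without WT replicate 3. For Egr1 it was -1.09 with an SE of 0.92, and -1.61 with an SE of 0.11 without WT replicate 3. Egr2 had -0.98 (SE 0.76) and without that library -1.47 (SE 0.21), and Egr3 had -2.23 (SE 0.78) and -2.73 (SE 0.42). Leaving out WT replicate 1 or 2 instead moved the values of Egr1, Egr2 and Egr3 nearer 0. Without IRF4-deficient replicate 2 they were farther from 0, at -1.19, -1.08 and -2.63. Over the 6 fits that each left out a library the log2 fold change ran from -1.61 to -0.60 for Egr1, from -1.47 to -0.53 for Egr2 and from -2.73 to -1.54 for Egr3, the ends nearest 0 being without WT replicate 1. Atf3 ran from -2.13 to -1.71. With limma-voom Egr1 had -0.54, Egr2 -0.59 and Egr3 -1.89, and with the replicate block -0.60, -0.67 and -2.01. The direction was the same in each of these fits, while the size for Egr1 and Egr2 depended on which WT library and which tool was used.

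For the AP-1 genes and Ier2 the fitted values lay nearer 0. Fos had a log2 fold change of -0.10 (SE 0.77) and Fosb 0.16 (SE 0.93), and without WT replicate 3 these were -0.56 (SE 0.27) and -0.35 (SE 0.38). Jun had 0.10 (SE 0.55) and Junb -0.03 (SE 0.20), and without WT replicate 3 they had -0.30 (SE 0.10) and -0.24 (SE 0.14). Jund had -0.26 (SE 0.25) and Ier2 0.16 (SE 0.40), and on leaving it out -0.49 (SE 0.24) and -0.18 (SE 0.18). The median of the 10 members was -0.18 with all libraries and -0.53 without that one, beside 0.0025 and 0.0024 over all tested genes. The 4 members with the lowest fitted values in both fits were Egr1, Egr2, Egr3 and Atf3.

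**Figure D3:**
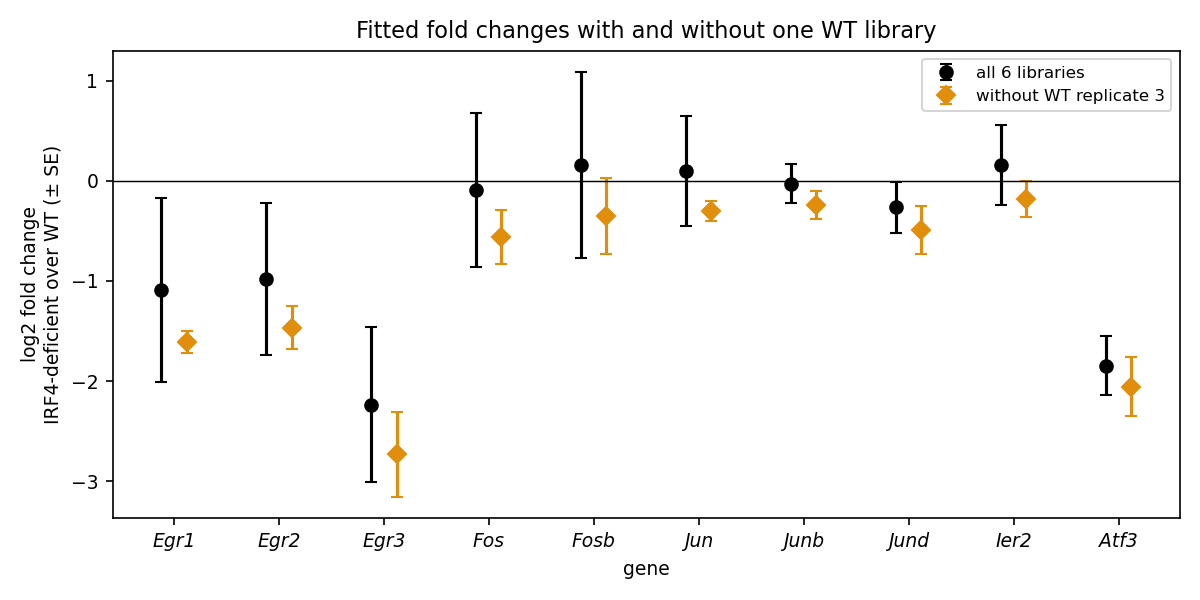
Fitted log2 fold change of IRF4-deficient over WT for each of the 10 genes (x axis), with bars of 1 SE, from all 6 libraries (black) and without WT replicate 3 (orange). Egr1, Egr2, Egr3 and Atf3 lie lowest in both, and for Egr1 the SE is 0.92 with and 0.11 without that library.

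Ratios of read counts within a library do not depend on scaling. The ratio of Egr1 to Jun counts was 0.776, 0.889 and 0.793 in IRF4-deficient libraries, against 2.09, 1.96 and 0.708 in WT libraries. For Egr1 to Fos it was 2.30, 2.14 and 3.34 in IRF4-deficient libraries and 4.85, 5.37 and 2.94 in WT libraries. WT replicate 3 was below WT replicates 1 and 2 in both ratios and lay below or within the IRF4-deficient range. The ratio of Egr1 to Egr2 varied less, at 18.5, 19.7 and 21.2 in IRF4-deficient libraries and 21.6, 21.8 and 16.0 in WT libraries.

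Ratios within the AP-1 genes and with Atf3 set the library WT replicate 3 apart. Fosb to Fos was 0.931, 1.17 and 0.915 in IRF4-deficient libraries and 0.803, 1.01 and 0.525 in WT libraries. Junb to Jun was 0.349, 0.299 and 0.340 in IRF4-deficient libraries and 0.339, 0.290 and 0.679 in WT libraries. Atf3 to Egr1 was 0.0172, 0.0240 and 0.0174 in IRF4-deficient libraries, against 0.0244, 0.0302 and 0.165 in WT libraries. In these 3 ratios WT replicate 3 lay outside the range of the other 5 libraries, while its Fos to Jun ratio of 0.241 lay within it.

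**Figure D4:**
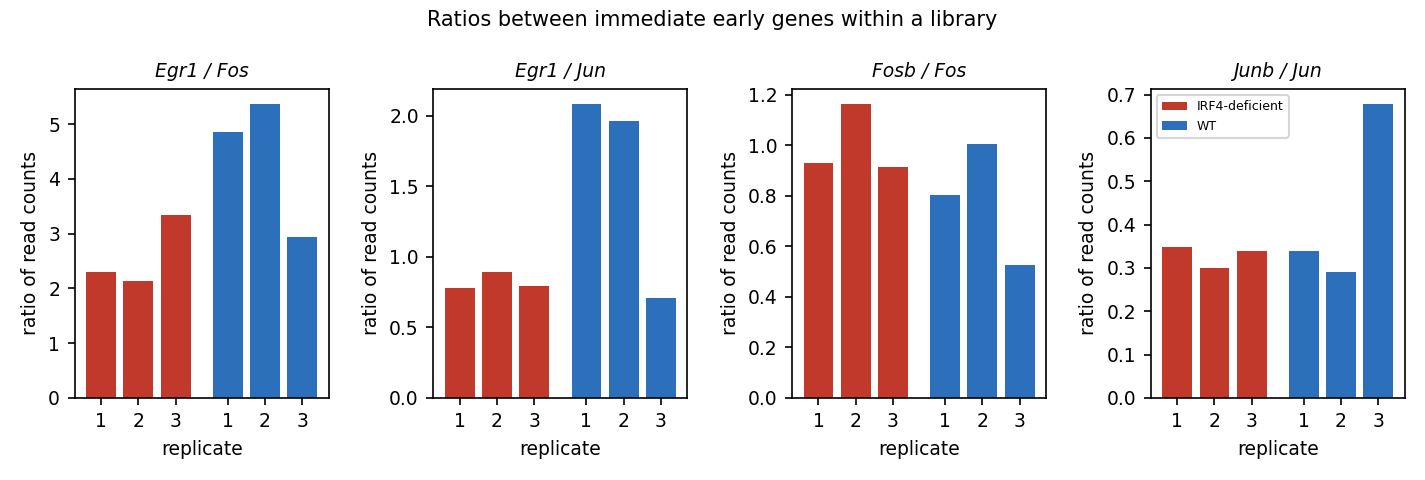
Ratios of read counts between 2 genes within each library, not corrected for gene length, for IRF4-deficient (red) and WT (blue) replicates 1 to 3 on the x axis. Egr1 to Jun is 1.96 and 2.09 in WT replicates 2 and 1 and at most 0.889 elsewhere, while Junb to Jun is highest in WT replicate 3, at 0.679.

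Over the 6 libraries, each member's log2 CPM was correlated with the mean of the other members, as a description only, since the libraries and their scaling are shared. Pearson's r was 0.99 for Egr2, 0.98 for Egr1 and 0.91 for Fos, between 0.74 and 0.86 for Egr3, Fosb, Jun, Junb, Jund and Ier2, and 0.39 for Atf3. Among 7935 other genes with a mean of at least 10 CPM, the 9 most like the mean of the members were Atpif1, Snora31, Slc35c2, Rps15a, Zfp36, Selk, Rgs1, Fth1 and Mrps18c, with r from 0.97 to 0.98. In WT replicate 3 these lay from 1.15-fold (Rps15a) to 3.26-fold (Snora31) below the other WT libraries. Zfp36 and Rgs1 were the genes among them from the list of other immediate early genes. Without WT replicate 3, 0 of these 9 genes remained among the 10 most like the members.

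Other immediate early genes were called in both directions. Of 60 on the list 56 were in the table and 50 were tested, of which 7 were called higher and 10 lower in IRF4-deficient cells by edgeR, beside 9.87% and 10.5% of all tested genes. Together they were 34% of the list, beside 20.4% of all tested genes, and the list's median log2 fold change was -0.06. Of these 17 calls, 13 held whichever library was left out, the exceptions being Sgk1, Phlda1, Btg1 and Ier3. Bhlhe40, which encodes a basic helix-loop-helix repressor, rose 3.35-fold to 833.5 ± 76.2 CPM, against 248.3 ± 31.6 CPM in WT (edgeR adjusted p = 5.57e-10). The Krüppel-like factor genes went both ways, with Klf4 higher at 116.5 ± 6.45 CPM, against 55.7 ± 16.6 CPM in WT, Klf2 higher with a log2 fold change of 0.96 (SE 0.14), and Klf6 lower with -0.79 (SE 0.10). Gadd45b, a growth arrest and stress kinase regulator, fell 3.16-fold to 17.7 ± 1.76 CPM, against 56.1 ± 1.65 CPM in WT. Zfp36l1, which promotes decay of AU-rich mRNAs, fell to 190.2 ± 11.997 CPM, against 411.7 ± 54.8 CPM in WT, and Tnfaip3 and Nfkbiz, inducible regulators of NF-kB, fell too, their log2 fold changes being -0.90 (SE 0.11) and -0.81 (SE 0.12). Among crossing families, the orphan receptor gene Nr4a3 fell to 1.79 ± 0.402 CPM, against 16.3 ± 2.59 CPM in WT, Nr4a1 was not called at 165.8 ± 29.7 CPM in IRF4-deficient cells and 118.7 ± 43.6 CPM in WT cells, and the MAP kinase phosphatase gene Dusp1 stood at 432.8 ± 53.5 CPM in IRF4-deficient cells and 436.4 ± 148 CPM in WT cells.

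Calls on that list also turned on WT replicate 3. In it 13 of the 50 genes were at least 2-fold below WT replicates 1 and 2, beside 2.19% of all tested genes. At least 2-fold above were 0, beside 2.13%, and the list's median log2 difference was -0.49. The 13 were Nr4a2, Ptgs2, Plk3, Gem, Pim1, Rgs1, Zfp36, Ier3, Cebpb, Ppp1r15a, Trib1, Arc and Nr4a1, of which Ier3 was called lower with all libraries (edgeR adjusted p = 0.0234), a call lost on leaving out IRF4-deficient replicate 2 or 3 or WT replicate 1 or 2 (0.0967, 0.112, 0.0858 and 0.0995). Zfp36, the tristetraprolin gene, stood at 798.9, 838.8 and 812.9 CPM in IRF4-deficient libraries, against 1312, 1186 and 450.6 CPM in WT libraries. Ppp1r15a, a regulator of the stress-induced block to translation, stood at 81.3, 95.3 and 89.2 CPM in IRF4-deficient libraries, against 147.2, 168.2 and 58.3 CPM in WT libraries. As with Egr1, the IRF4-deficient libraries lay between WT replicate 3 and WT replicates 1 and 2. Without WT replicate 3, 18 of the 53 list genes tested were called lower, the 10 of the full fit and 8 more (Btg2, Ier5, Nr4a2, Pim1, Plk3, Ppp1r15a, Rgs1 and Zfp36). In that fit 6 were called higher, and the list's median log2 fold change was -0.26. Of all 12203 genes tested in it, 7.78% were called lower and 7.31% higher. Of the 8 added genes, 6 were at least 2-fold below in WT replicate 3, so leaving that library out raised their WT level. By contrast, Gadd45b, Dusp5 and Dusp2 differed in WT replicate 3 by 1.01-fold from the other WT libraries, so not every inducible gene was lower there.

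**Figure D5:**
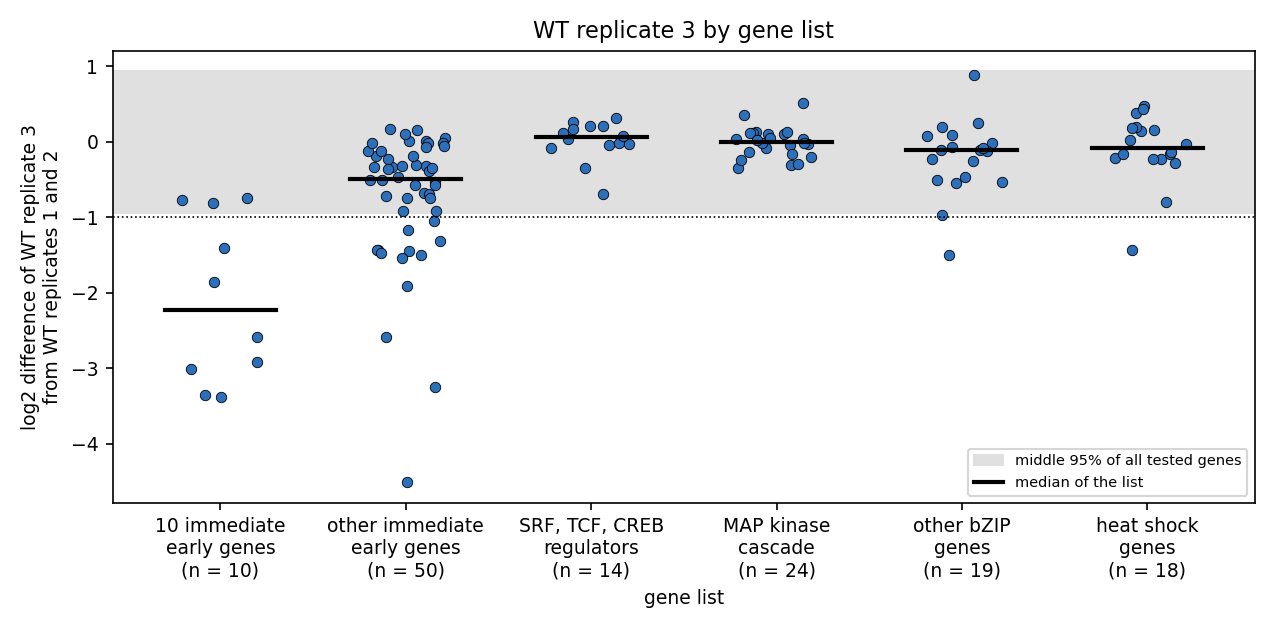
Log2 difference of WT replicate 3 from the mean of WT replicates 1 and 2 for the tested genes of 6 lists (x axis; the 2 EGR corepressors are not plotted), with a black bar at each list's median. The grey band holds the middle 95% of all tested genes, the dotted line marks 2-fold below, and the medians are -2.22 for the 10 immediate early genes, -0.49 for other immediate early genes and -0.11 to 0.06 for the other 4 lists plotted.

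The mRNAs that encode the upstream machinery differed little in WT replicate 3 from the other WT libraries. The activity of the encoded proteins was not measured. Of the 14 SRF, TCF and CREB regulators and the 24 MAP kinase cascade genes, 0 were 2-fold below or above in that library, with median log2 differences of 0.06 and 0.0038. Between the genotypes 1 of the 14 regulators was called higher and 2 lower, a share of 21.4% beside 20.4% of all tested genes. Elk3, a ternary complex factor that represses SRF targets until phosphorylated, rose to 223.8 ± 21.5 CPM, against 138.0 ± 16.1 CPM in WT (edgeR adjusted p = 6.73e-05). Crtc2, a CREB coactivator, fell to 93.2 ± 3.75 CPM, against 136.1 ± 5.73 CPM in WT. Elk4 was called lower with all libraries (edgeR adjusted p = 0.0155), but not without WT replicates 2 or 3 (0.079 and 0.0876). Srf at 49.1 ± 8.57 CPM in IRF4-deficient cells and 47.9 ± 12.1 CPM in WT cells and Creb1 at 231.1 ± 19.4 CPM in IRF4-deficient cells and 224.6 ± 19.99 CPM in WT cells were not called.

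In the MAP kinase cascade 4 of 24 genes were called higher and 1 lower, 20.8% of the list beside the same 20.4%. Map2k6, an activator of p38, fell 2.25-fold to 14.9 ± 1.83 CPM, against 33.5 ± 2.20 CPM in WT (edgeR adjusted p = 6.28e-05). Mapk3, which encodes ERK1, rose to 85.1 ± 12.6 CPM, against 56.1 ± 8.30 CPM in WT, and the p38 target kinase gene Mapkapk3 rose with a log2 fold change of 0.71 (SE 0.15). Mapkapk2 and Braf were also called higher with all libraries (edgeR adjusted p = 0.0187 and 0.0248). The call of Mapkapk2 was lost on leaving out IRF4-deficient replicate 2 or 3 or WT replicate 2 or 3, and that of Braf on leaving out any library but IRF4-deficient replicate 1. Mapk14, the p38 alpha gene, at 592.4 ± 39.8 CPM in IRF4-deficient cells and 565.4 ± 53.5 CPM in WT cells, was not called.

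Among leucine zipper (bZIP) genes other than the members, 2 of 19 tested were called higher and 2 lower, 21.1% of the list beside 20.4% of all tested genes. Batf3, a JUN partner in dendritic cells, fell to 26.95 ± 1.495 CPM, against 66.3 ± 1.62 CPM in WT, and Atf6, the endoplasmic reticulum stress factor gene, also fell (log2 fold change -0.53, SE 0.08). Nfe2l2, the oxidative stress factor gene, rose to 166.8 ± 38.2 CPM, against 93.2 ± 19.7 CPM in WT, and the scarce Nfe2 rose to 7.47 ± 3.48 CPM, against 1.66 ± 0.759 CPM in WT. These 4 calls held whichever library was left out. In WT replicate 3, 1 of the 19 genes (Jdp2, an AP-1 repressor gene) was 2-fold below, at 3.96 CPM, with 13.1 and 9.73 CPM in the other WT libraries. Of the EGR corepressor genes, Nab1 was called higher at 154.4 ± 9.35 CPM, against 123.9 ± 5.77 CPM in WT (edgeR adjusted p = 0.0231), a call lost on leaving out IRF4-deficient replicate 3 or WT replicate 1 or 2 (0.0559, 0.0753 and 0.109). Nab2 was not called.

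Heat shock genes belong to a separate stress programme. Their median log2 difference in WT replicate 3 was -0.08, with 1 of 18 tested genes 2-fold below (Hspa1a, at a mean under 3 CPM in both groups) and 0 above. Hsp90aa1, the inducible HSP90 gene, stood at 99.0, 110.6 and 107.7 CPM in IRF4-deficient libraries and at 137.3, 158.8 and 85.4 CPM in WT libraries, so the IRF4-deficient libraries lay between WT replicate 3 and the other WT libraries, as for Egr1. It was 1.73-fold below in WT replicate 3 and was called lower without that library (edgeR adjusted p = 0.0071), but not with all libraries (0.374). Between the genotypes 3 were called lower and 0 higher, 16.7% of the list beside 20.4% of all tested genes. Chordc1, an HSP90 cochaperone gene, fell to 61.9 ± 5.29 CPM, against 90.2 ± 5.37 CPM in WT (edgeR adjusted p = 0.00207). Hspa5 and Dnaja1 were called with all libraries (edgeR adjusted p = 0.0112 and 0.0181), but Hspa5 not without WT replicate 1 (0.0688), and Dnaja1 not without IRF4-deficient replicate 2 or WT replicate 3 (0.0563 and 0.154). The abundant Hspa8, at 196.4 ± 38.9 CPM in IRF4-deficient cells and 191.2 ± 36.2 CPM in WT cells, and Hsp90ab1, at 889.1 ± 41.1 CPM in IRF4-deficient cells and 857.4 ± 73.0 CPM in WT cells, were not called.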

How the data were processed

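RNA of splenic cDC2s was sequenced from 3 IRF4-deficient and 3 WT samples. The authors deposited raw counts per gene symbol, made with STAR, HTSeq and DESeq2 on mm10 per the submitters' processing notes. Their annotation and strand setting were not given in the sources used here. Columns were matched to samples by title or source name. Depth ran from 7421605 to 11459920 counts per library.

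Genes were filtered with filterByExpr and scaled by TMM, and the 2 genotypes were compared in edgeR 4.0.16 (R 4.3.3, glmQLFit with robust shrinkage, glmQLFTest, two-sided, Benjamini-Hochberg adjustment over 11934 genes, called under 0.05). The SE comes from the F statistic. Fold changes carry a prior count of 0.125 and log2 CPM one of 0.5. The steps were tested on simulated data. Library pairs of a group differed beyond counting noise (chi-square per degree of freedom 7.66 to 15.9). Locations and exon lengths are those of GENCODE M21 (GRCm38, which mm10 names too).

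The members and lists were chosen with earlier results of these data known. The genes to name were all members, in each list the 4 with the smallest p and any of at least 50 CPM, and the 10 genes of each ranking described; some of these are given as counts. A few genes that the rule would name are not reported here. Genes outside that rule, such as Plk3, Jdp2 and Dusp5, and single markers were named after their values were seen. Alternatives were DESeq2 1.42.0, limma-voom (limma 3.58.1), DESeq2 and upper-quartile factors, other filters, no robust shrinkage, a replicate block, removal of Rn45s and Malat1, and leaving out each library.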

Additional observations from a re-analysis of the deposited data

How the results depend on the processing

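Over the fits that left out 1 library, the count of members called ran from 1 to 5, with 5 without WT replicate 3, and 2 were called with no robust shrinkage and 2 with the replicate block, where Egr3 joined Atf3. Without WT replicate 3 all 5 were lower, beside 7.78% of 12203 tested genes called lower and 7.31% higher. Over all genes, 2418 were called with no robust shrinkage and 2267 with the replicate block, of 11934 tested. The members were chosen for these values, so no such count is evidence about them. MAP kinase cascade calls ranged from 3 to 6 and EGR corepressor calls from 0 to 1 when 1 library was left out. Log2 fold changes near 0 changed sign. Fos was 0.21 with limma-voom and 0.19 with the replicate block, and Junb 0.024 and 0.014. Leaving out 1 library gave -0.56 to 0.40 for Fos, -0.35 to 0.55 for Fosb, -0.30 to 0.43 for Jun, -0.24 to 0.23 for Junb and -0.18 to 0.59 for Ier2. The cause was not tested. All genes called ranged from 1779 to 2431 without 1 library and from 2267 to 2492 otherwise. The count of 7 members at least 2-fold below in WT replicate 3 held under each scaling, prior count and removal tried. Of the 10 genes most like the members, 0 to 6 remained under other settings, so that ranking is unstable. Libraries with the same number by title did not deviate together (correlations -0.0086, 0.048 and -0.011), so these numbers were not taken to pair samples. The replicate block used the same title numbers. A pairing by the numbers in the source names was not tested. A filter of 5 CPM in 3 libraries left Egr3 untested. At 9 to 35 counts in the lowest libraries, Egr3, Egr2 and Atf3 are limited by depth.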
